A study of Homo sapiens with 14 samples.

Results

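DNA replication and nucleotide synthesis genes are described here in PANC-1 cells, an established human pancreatic carcinoma line, across 4 treatments. The 48 genes were named by function, with earlier results of these data known. Each is represented by its brightest probe set, by mean level across the 14 arrays, among those that the platform annotation ties to a single gene. All 48 were on the array, among 18129 genes in all, and all 48 were among the 10877 genes bright enough to be tested.

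The cells were kept in 1% serum for 24 h and then treated for 48 h. Per the labels, 3 samples received TGFb1 at 5 ng/ml with sodium valproate at 2 mM, 3 received TGFb1 at 5 ng/ml with acriflavine at 2.5 µM, 4 received TGFb1 at 5 ng/ml alone, and 4 were untreated controls, for which the treatment protocol gives vehicle. These are called valproate, acriflavine, TGFb1 and control arrays below, and both inhibitor groups always contained TGFb1. TGFb1 is a cytokine that drives epithelial-mesenchymal transition and can restrain the cell cycle of epithelial cells. Valproate inhibits histone deacetylases, and acriflavine is a mixture of DNA-binding acridine dyes. The design text calls the replicates biological, all come from 1 cell line, and a group with acriflavine alone was not analysed here. Values are log2 intensities, a change is a difference of group means on that scale ± the standard error (SE) of the limma fit, and a gene rose or fell where its p adjusted over all genes tested was under 0.05. A probe set's level cannot be compared directly with that of another probe set, so changes are read only as differences between arrays. Levels of different probe sets were set side by side for the choice of probe set and of genes bright enough to test, and for cell type markers.

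Replication starts in G1, when the origin recognition complex, CDC6 and CDT1 load the MCM2 to MCM7 ring onto DNA (licensing). In S phase CDC45 and the GINS complex turn the ring into an active helicase, primase and the polymerases copy both strands on the clamp PCNA, and thymidylate and ribonucleotide enzymes supply the building blocks. Most of these genes are known targets of the E2F transcription factors, which the RB proteins hold back until G1 cyclins act, so that their transcripts are usual markers of cells entering S phase.

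Promoters are shown because the genes moved together and E2F motifs are short enough to be read directly. RefSeq windows from 250 bases before to 50 bases after a start (GRCh38.p14) were found for 41 of the 48 genes, as 53 windows. Not matched were MCM4, MCM5, GINS4, POLD3, RPA2, RPA3 and CCNE2. The E2F motif was searched on both strands as TTTCCCGC, TTTGGCGC, TTTCGCGC and TTTGCCGC, whose reverse complements are GCGGGAAA, GCGCCAAA, GCGCGAAA and GCGGCAAA, and neighbouring matches may overlap. It was found in 22 of the 53 windows (41.5%), against 1164 of all 35116 windows (3.32%) and 649 of the 13094 windows of tested genes (4.96%). By gene, 21 of the 41 held it, against 607 of 9000 tested genes with a window (6.74%). CCAAT, a box bound by NF-Y and read on both strands (ATTGG), was in 32 of the 53 windows (60.4%), against 34.6% of all windows. TTTGAA or TTCAAA, a core of the CHR element of many mitotic promoters, was in 1 of the 53, that of RRM1, against 15.2% of all. These are matches of letters in a window and not measured binding.

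The stretches below come from the 6 genes with the largest fall under valproate among those with an E2F motif before the start, running 5′ to 3′ in the gene's direction, with the motif in capitals. The TYMS stretch (thymidylate synthase) is chr18:657564-657652 (plus strand), that of MCM7 (a subunit of the ring) chr7:100101398-100101456 (minus strand), and that of GINS2 (a GINS subunit) chr16:85688955-85689035 (minus strand). The E2F1 stretch, which holds 2 motifs in the promoter of an E2F gene itself, is chr20:33686386-33686455 (minus strand), that of MCM3 chr6:52284859-52284966 (minus strand), and that of UHRF1, a reader of hemimethylated DNA behind the fork, chr19:4909437-4909500 (plus strand). All end at the base before the annotated start but that of MCM3, which ends 116 bases further upstream.
TYMS: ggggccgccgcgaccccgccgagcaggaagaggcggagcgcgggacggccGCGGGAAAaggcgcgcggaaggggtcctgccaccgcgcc
MCM7: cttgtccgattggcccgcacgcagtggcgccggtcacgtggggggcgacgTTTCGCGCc
GINS2: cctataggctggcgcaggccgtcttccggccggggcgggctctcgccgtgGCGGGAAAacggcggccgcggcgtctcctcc
E2F1: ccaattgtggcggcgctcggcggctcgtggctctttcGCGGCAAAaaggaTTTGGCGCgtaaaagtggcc
MCM3: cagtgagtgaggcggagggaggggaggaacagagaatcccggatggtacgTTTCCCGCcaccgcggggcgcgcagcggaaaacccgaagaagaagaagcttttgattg
UHRF1: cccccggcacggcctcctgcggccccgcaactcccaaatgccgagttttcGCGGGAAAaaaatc

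Median changes of the genes with and without the motif lay close together. The 21 genes with it had a median valproate minus TGFb1 change of -0.83 and the 20 without it -0.82. For acriflavine minus TGFb1 the medians were 0.42 and 0.33, and for TGFb1 minus control 0.27 and 0.30. No test was made of these medians.

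Array medians lay between 7.16 and 7.21. TGFb1 replicate 4 stood apart from the other TGFb1 arrays, with a standard deviation (SD) of its deviations from the group mean of 0.375 over all tested genes, against 0.147 to 0.256 for TGFb1 replicates 1 to 3, so it is given separately and last in each list of TGFb1 values. Control replicate 4 (0.250) also exceeded the other control arrays (0.107 to 0.151) and is last in the control lists. The list of 8 PANC-1 markers held the keratins KRT8, KRT18, KRT19 and KRT7, EPCAM, GATA6 and SOX9, and also VIM (vimentin), a mesenchymal marker. Their means over all arrays ran from 6.52 to 14.7, and 7 of the 8 were tested. KRT8, KRT18 and KRT19 averaged 13.5, 13.7 and 12.5. The 3 leukocyte, 3 endothelial and 3 fibroblast markers measured all lay below the brightness limit of 6.89 (the mean over all arrays under which a gene was not tested), and of 3 hepatocyte markers the 2 tested averaged at most 7.51. The mean of the fibroblast list was 5.40 to 5.80 in valproate arrays, 4.48 to 4.71 in acriflavine arrays, 4.55 to 4.75 in TGFb1 arrays and 4.59 to 4.71 in control arrays. LUM, the proteoglycan lumican, carried this, at a mean of 6.14 ± 0.29 in valproate arrays against 3.51 ± 0.11 in TGFb1 arrays (SD, n = 3 and 4).

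**Figure D1:**
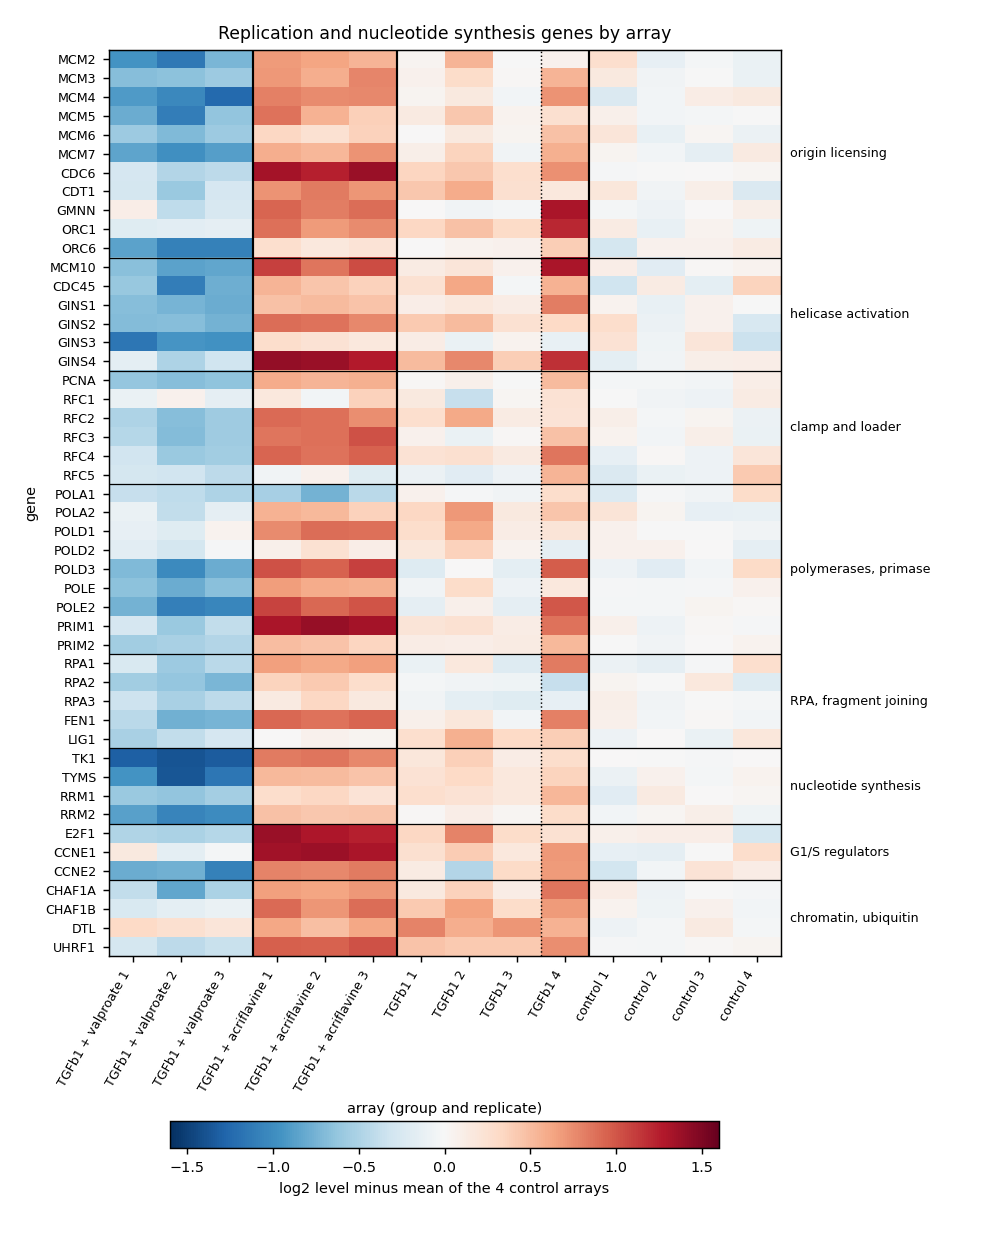
Log2 level of each of the 48 genes (rows, by role) in each of the 14 arrays (columns), minus the gene's mean over the 4 control arrays, with blue for lower and red for higher; solid lines part the groups and a dotted line sets TGFb1 replicate 4 apart. The valproate columns are blue for nearly all rows, the acriflavine columns red, and TGFb1 replicate 4 is redder than TGFb1 replicates 1 to 3 in 38 of 48 rows.

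Valproate added to TGFb1 was compared with TGFb1 alone, the question being what the inhibitor changes in stimulated cells. 44 of the 48 genes fell and none rose, where 16.2% of all tested genes fell. The median change of the 48 was -0.86, against -0.01 over all genes tested. 16 of the 48 fell at least 2-fold, against 1.63% of all genes, and for 45 of the 48 every valproate array lay below every TGFb1 array, against 17.9% of all genes. The count was 44 without TGFb1 replicate 4 and 40 to 44 with any 1 array left out. Over all tested genes 4397 passed without TGFb1 replicate 4, in either direction, against 3402 in the main fit. In bulk samples, fewer cells in S phase and less of each transcript per cell cannot be told apart. The mean of the PANC-1 markers, VIM included, was 11.5 to 11.6 in valproate arrays, against 11.0 to 11.4 in TGFb1 arrays. Its part, and that of the LUM level above, in this result was not tested.

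Nucleotide synthesis genes fell most, with 4 of 4 and a median of -1.26. TK1, the thymidine kinase that salvages thymidine in S phase, was at 9.61, 9.53 and 9.58 in valproate arrays, against 11.09, 11.29, 11.03 and 11.19 in TGFb1 arrays. It was at 11.74, 11.76 and 11.68 in acriflavine arrays, against 10.92, 10.90, 10.89 and 10.92 in control arrays. The groups do not overlap, with valproate lowest and acriflavine highest, and TK1 fell by 1.58 ± 0.07 with valproate (adjusted p = 3.15e-08). TYMS, which makes thymidylate and is the target of fluorouracil, was at 11.80, 11.39 and 11.60 in valproate arrays, against 12.99, 13.08, 12.93 and 13.12 in TGFb1 arrays. Its levels were 13.28, 13.27 and 13.22 in acriflavine arrays, against 12.67, 12.83, 12.73 and 12.81 in control arrays. All 3 valproate arrays lay more than 1 log2 unit below every TGFb1 array, a change of -1.43 ± 0.09 (adjusted p = 3.76e-07). RRM1 and RRM2, the large and the small S-phase subunit of ribonucleotide reductase, changed by -0.89 ± 0.10 and -1.09 ± 0.08.

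Of the 11 licensing genes 10 fell, with a median of -0.87. MCM4, a subunit of the ring, was at 9.97, 9.84 and 9.62 in valproate arrays, against 10.91, 11.03, 10.84 and 11.59 in TGFb1 arrays, a change of -1.28 ± 0.16 (adjusted p = 4.33e-05). It was at 11.68, 11.63 and 11.65 in acriflavine arrays, against 10.64, 10.83, 11.00 and 11.03 in control arrays. The valproate arrays are the lowest and do not overlap with the others, while TGFb1 replicate 4 reaches close to the acriflavine arrays. MCM7 was at 11.15, 11.02 and 11.11 in valproate arrays, against 12.09, 12.36, 11.94 and 12.56 in TGFb1 arrays, a change of -1.14 ± 0.13. In acriflavine arrays it was at 12.58, 12.53 and 12.72, against 12.04, 11.95, 11.85 and 12.14 in control arrays. All 6 ring subunits fell, with MCM2 at -1.11, MCM5 at -1.07, MCM3 at -0.87 and MCM6 at -0.79. The origin recognition subunits ORC6 (-1.14) and ORC1 (-0.74) and the ring loaders CDC6 (-0.83) and CDT1 (-0.74) fell too. GMNN, geminin, which blocks relicensing by binding CDT1, changed by -0.49 ± 0.26, which did not pass the test (adjusted p = 0.174). Its valproate arrays at 10.54, 10.03 and 10.18 overlapped with the TGFb1 arrays at 10.45, 10.38, 10.40 and 11.75, of which replicate 4 is by far the highest.

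All 6 helicase activation genes fell, within a narrow range of -1.21 to -1.01. MCM10, which helps to activate the loaded helicase, was at 7.50, 7.31 and 7.32 in valproate arrays, against 8.29, 8.35, 8.23 and 9.46 in TGFb1 arrays, a change of -1.21 ± 0.23 (adjusted p = 0.00124). It was at 9.26, 9.02 and 9.20 in acriflavine arrays, against 8.27, 7.98, 8.18 and 8.22 in control arrays. Without TGFb1 replicate 4, which exceeds even the acriflavine arrays, the valproate minus TGFb1 change was -0.91 (adjusted p = 6.64e-06). CDC45, which joins the ring to form the helicase, was at 7.35, 6.84 and 7.17 in valproate arrays, against 8.19, 8.57, 7.92 and 8.51 in TGFb1 arrays, a change of -1.18 ± 0.18. Its acriflavine arrays were at 8.50, 8.40 and 8.32, against 7.63, 8.09, 7.79 and 8.30 in control arrays. The valproate arrays lay below all others. The GINS subunits changed by -1.04 (GINS1), -1.08 (GINS2), -1.01 (GINS3) and -1.03 (GINS4).

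Among the sliding clamp and its loader 4 of 6 genes fell. RFC2, a small subunit of the clamp loader, was at 9.42, 9.23 and 9.35 in valproate arrays, against 10.18, 10.52, 10.05 and 10.13 in TGFb1 arrays, a change of -0.89 ± 0.11 (adjusted p = 3.15e-05). It was at 10.82, 10.79 and 10.65 in acriflavine arrays, against 10.00, 9.88, 9.96 and 9.81 in control arrays. None of the 4 groups overlap for RFC2. RFC4, another small subunit, was at 10.53, 10.24 and 10.28 in valproate arrays, against 11.07, 11.09, 10.98 and 11.68 in TGFb1 arrays, a change of -0.86 ± 0.15. With acriflavine it was at 11.77, 11.70 and 11.77, against 10.70, 10.85, 10.74 and 11.03 in control arrays. PCNA, the clamp, changed by -0.80 ± 0.11 and RFC3 by -0.68 ± 0.12. RFC1, the large loader subunit, did not pass at -0.07 ± 0.14 (adjusted p = 0.755).

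RFC5 did not pass by its brightest probe set, at -0.38 ± 0.17 (adjusted p = 0.119), and its probe sets disagreed. The other 3 probe sets of RFC5 were at -0.998, -1.01 and -1.09, with adjusted p of 0.00107, 0.000297 and 0.000221 when 24623 probe sets were tested one by one. For acriflavine minus TGFb1 the brightest was at -0.11 and the others at 0.32, 0.34 and 0.42. The cause of the disagreement was not tested. Beside the kept probe sets, 54 further probe sets of 29 of the 48 genes were above the brightness limit. Their sign matched that of the kept probe set in 54 of 54 for valproate, 47 of 54 for acriflavine and 53 of 54 for TGFb1 minus control.

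Of 9 polymerase and primase genes 8 fell. POLE2, the second subunit of the leading-strand polymerase epsilon, was at 7.57, 7.22 and 7.28 in valproate arrays, against 8.17, 8.40, 8.17 and 9.32 in TGFb1 arrays, a change of -1.16 ± 0.21 (adjusted p = 0.000987). It was at 9.40, 9.24 and 9.32 in acriflavine arrays, against 8.29, 8.28, 8.37 and 8.33 in control arrays. TGFb1 replicate 4 lies among the acriflavine arrays, and replicates 1 to 3 lie around the control level. POLD3, a subunit of the lagging-strand polymerase delta, was at 7.77, 7.46 and 7.68 in valproate arrays, against 8.27, 8.48, 8.31 and 9.44 in TGFb1 arrays, a change of -0.99 ± 0.23. Its acriflavine arrays were at 9.49, 9.41 and 9.57, against 8.39, 8.29, 8.43 and 8.78 in control arrays. The catalytic subunits changed by -0.79 (POLE), -0.40 (POLD1) and -0.50 (POLA1, of polymerase alpha). The primase subunits PRIM1 and PRIM2 changed by -0.78 and -0.73, and POLA2, which links polymerase alpha to the fork, by -0.62. POLD2, an accessory subunit of polymerase delta, did not pass at -0.27 ± 0.11 (adjusted p = 0.0873), but it did without TGFb1 replicate 4, at -0.36 (adjusted p = 0.0106).

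The genes of single-strand binding and of Okazaki fragment joining fell in 5 of 5. FEN1, the flap nuclease that trims fragments, was at 10.06, 9.72 and 9.74 in valproate arrays, against 10.57, 10.66, 10.45 and 11.29 in TGFb1 arrays, a change of -0.90 ± 0.16 (adjusted p = 0.000684). It was at 11.41, 11.35 and 11.42 in acriflavine arrays, against 10.56, 10.44, 10.50 and 10.44 in control arrays. LIG1, the ligase that seals them, was at 7.84, 7.97 and 8.09 in valproate arrays, against 8.63, 8.93, 8.68 and 8.75 in TGFb1 arrays, a change of -0.78 ± 0.10. Acriflavine arrays had 8.37, 8.43 and 8.40, against 8.28, 8.37, 8.25 and 8.54 in control arrays. FEN1 was thus highest with acriflavine, while LIG1 was highest with TGFb1 alone. The 3 subunits of RPA, which coats single strands, fell less, with RPA1 at -0.59, RPA2 at -0.51 and RPA3 at -0.29. RPA1 was at -0.37 without TGFb1 replicate 4. It did not pass without TGFb1 replicate 2 or valproate replicate 2 or 3, nor by its brightest probe set outside the _x_at and _s_at kinds, which may match more than 1 transcript (-0.10, adjusted p = 0.453), and RPA3 and POLD1 did not without valproate replicate 2 (adjusted p of up to 0.129, 0.0613 and 0.0561).

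Regulators of S-phase entry fell in 3 of 3. CCNE2, cyclin E2, was at 7.49, 7.51 and 7.20 in valproate arrays, against 8.40, 7.81, 8.59 and 8.96 in TGFb1 arrays, a change of -1.04 ± 0.21 (adjusted p = 0.00157). It was at 9.07, 9.05 and 9.11 in acriflavine arrays, against 7.98, 8.24, 8.50 and 8.40 in control arrays. E2F1 was at 7.88, 7.86 and 7.91 in valproate arrays, against 8.70, 9.16, 8.66 and 8.60 in TGFb1 arrays, a change of -0.90 ± 0.13. In acriflavine arrays it was at 9.74, 9.65 and 9.61, against 8.45, 8.47, 8.47 and 8.08 in control arrays. E2F1 in replicate 4 was the lowest of both the TGFb1 and the control arrays. CCNE1, cyclin E1, fell by 0.39 ± 0.13 (adjusted p = 0.0376), but lost its call without any 1 acriflavine array, without TGFb1 replicate 2 or 4, valproate replicate 2 or 3, or control replicate 3 (adjusted p of up to 0.157), and by its brightest probe set outside the _x_at and _s_at kinds (adjusted p = 0.0795).

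The 4 genes of chromatin assembly and of replication-coupled ubiquitin ligases all fell. CHAF1A, the large subunit of the chromatin assembly factor that places histones behind the fork, was at 8.52, 8.09 and 8.41 in valproate arrays, against 9.07, 9.28, 9.04 and 9.78 in TGFb1 arrays. Its change was -0.95 ± 0.15 (adjusted p = 0.000363), and it was at 9.57, 9.56 and 9.61 in acriflavine arrays, against 9.04, 8.83, 8.92 and 8.89 in control arrays. UHRF1 was at 9.99, 9.85 and 9.92 in valproate arrays, against 10.73, 10.69, 10.69 and 11.01 in TGFb1 arrays, a change of -0.86 ± 0.08. It was at 11.23, 11.21 and 11.29 in acriflavine arrays, against 10.24, 10.24, 10.28 and 10.31 in control arrays. The 4 groups of UHRF1 do not overlap, in the order valproate, control, TGFb1 and acriflavine. CHAF1B, the middle subunit of that factor, changed by -0.68 and DTL, the CUL4 ligase adaptor that marks CDT1 for destruction in S phase, by -0.41.

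**Figure D2:**
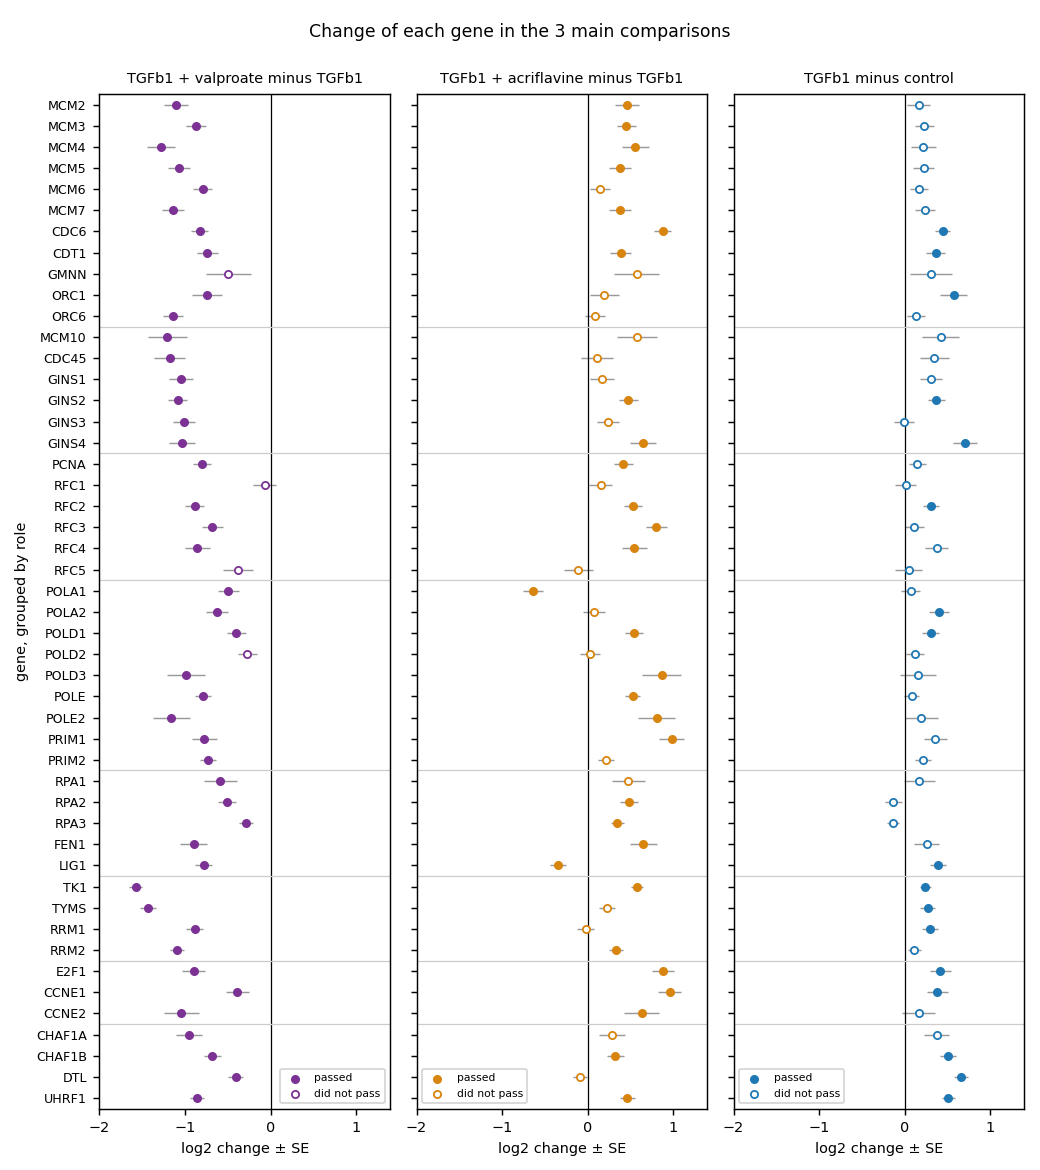
Log2 change ± SE of each of the 48 genes (rows, by role) in 3 comparisons (panels), with filled points for an adjusted p under 0.05 over all genes tested. All 48 points lie left of 0 for valproate, POLA1 and LIG1 are the filled points left of 0 for acriflavine, and 17 points are filled for TGFb1 minus control.

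Acriflavine added to TGFb1 was compared with TGFb1 alone. 28 of the 48 genes rose and 2 fell, where 24.5% of all tested genes rose and 19.1% fell. Their median change was 0.44, against 0.03 over all genes, and none changed 2-fold. For 26 of the 48 every acriflavine array lay above every TGFb1 array, against 24.8% of all genes. Without TGFb1 replicate 4 the count of genes that rose was 37, with the same 2 falls. Over all tested genes 5614 passed in that fit, in either direction, against 4738 in the main fit. The mean of the PANC-1 markers, VIM included, was 11.9 in each acriflavine array, against 11.0 to 11.4 in TGFb1 arrays. Its part in the result was not tested.

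The largest rise was in PRIM1, the catalytic subunit of primase. PRIM1 was at 10.60, 10.68 and 10.62 in acriflavine arrays, against 9.49, 9.54, 9.41 and 10.16 in TGFb1 arrays, and rose by 0.98 ± 0.15 (adjusted p = 0.000116). It was at 9.02, 8.70 and 8.89 in valproate arrays, against 9.37, 9.21, 9.31 and 9.27 in control arrays. Cyclin E1, which with CDK2 drives entry into S phase, came next. CCNE1 was at 11.13, 11.16 and 11.10 in acriflavine arrays, against 10.05, 10.20, 9.96 and 10.49 in TGFb1 arrays, and rose by 0.96 ± 0.13 (adjusted p = 6.12e-05). Its valproate arrays were at 9.95, 9.63 and 9.76, against 9.66, 9.65, 9.78 and 10.07 in control arrays, which overlap. E2F1 rose by 0.89 ± 0.13 (adjusted p = 0.000105) and CCNE2 by 0.63 ± 0.21, so that all 3 regulators of S-phase entry rose. CCNE2 lost its call when any 1 acriflavine array was left out (adjusted p of up to 0.0636).

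Among licensing genes 7 of 11 rose. CDC6 rose by 0.88 ± 0.10 (adjusted p = 1.14e-05), and CDT1 by 0.39 ± 0.12. Of the ring, MCM4 (0.56), MCM2 (0.46), MCM3 (0.45), MCM5 (0.38) and MCM7 (0.37) rose, and MCM6 was at 0.15 and did not pass. Some of these calls rested on single arrays. MCM2 lost its call without acriflavine replicate 1 or 2 or TGFb1 replicate 3 (adjusted p of up to 0.0663). MCM5 lost it without acriflavine replicate 1 or 2 or TGFb1 replicate 1 or 3 (up to 0.187), and was at 0.24 without acriflavine replicate 1. MCM7 lost it without acriflavine replicate 1 or 3 or TGFb1 replicate 1 or 3 (up to 0.111), and CDT1 without acriflavine replicate 2 or TGFb1 replicate 3 (up to 0.0817). GMNN (0.57), ORC1 (0.20) and ORC6 (0.09) did not pass. Without TGFb1 replicate 4, GMNN was at 0.91 (adjusted p = 1.07e-05), ORC1 at 0.41 and MCM6 at 0.25, and all 3 passed.

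GINS4 (0.64) and GINS2 (0.47) rose, and the other 4 helicase activation genes did not pass, with MCM10 at 0.58, GINS3 at 0.24, GINS1 at 0.17 and CDC45 at 0.11. MCM10 was at 0.87 (adjusted p = 4.51e-06) and GINS1 at 0.34 without TGFb1 replicate 4, and both then passed. Further probe sets of MCM10 were at 1.02 and 0.89 with all arrays. Both passed when 24623 probe sets were tested one by one (adjusted p of 0.00105 and 0.00304). PCNA (0.42) and the loader subunits RFC3 (0.80), RFC4 (0.54) and RFC2 (0.53) rose. RFC1 was at 0.15 and did not pass. TK1 rose by 0.58 ± 0.07 (adjusted p = 2.72e-05) and RRM2 by 0.34 ± 0.08, while TYMS (0.23) and RRM1 (-0.02) did not pass. Further probe sets of RRM1 were at -0.19, -0.24 and -0.26, and the last passed when probe sets were tested one by one (adjusted p = 0.0426). TYMS had acriflavine arrays above every TGFb1 array and passed without TGFb1 replicate 4 (adjusted p = 0.0372). FEN1 (0.65), RPA2 (0.48), RPA3 (0.35), UHRF1 (0.46) and CHAF1B (0.32) rose. RPA1 (0.47), CHAF1A (0.29) and DTL (-0.09) did not pass, but RPA1 and CHAF1A did without TGFb1 replicate 4, at 0.69 and 0.45. CHAF1B lost its call without acriflavine replicate 1 or 3 (adjusted p of up to 0.07), and with the mean of its probe sets (0.14, adjusted p = 0.156). Without _x_at and _s_at probe sets MCM4 (0.32, adjusted p = 0.125) and RRM2 (0.31, 0.0945) did not pass.

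Members of the polymerase alpha-primase complex, which makes the primers of both strands, moved in opposite directions. POLA1, its polymerase, fell by 0.64 ± 0.12 (adjusted p = 0.000838), whereas PRIM1 rose, and POLA2 at 0.08 and PRIM2 at 0.22 did not pass. POLA1 was at 8.30, 8.07 and 8.40 in acriflavine arrays, against 8.90, 8.81, 8.77 and 9.11 in TGFb1 arrays. It was at 8.45, 8.41 and 8.33 in valproate arrays, against 8.60, 8.81, 8.77 and 9.12 in control arrays. Both inhibitor groups lay below all TGFb1 and control arrays for this gene, which has 1 single-gene probe set. PRIM2 passed without TGFb1 replicate 4 (0.32, adjusted p = 0.0013). Of the other polymerases POLD3 (0.87), POLE2 (0.81), POLD1 (0.54) and POLE (0.52) rose, and POLD2 was at 0.03. LIG1 fell by 0.35 ± 0.10 (adjusted p = 0.0093), and all 6 of its probe sets were lower, by -0.41 to -0.25.

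**Figure D3:**
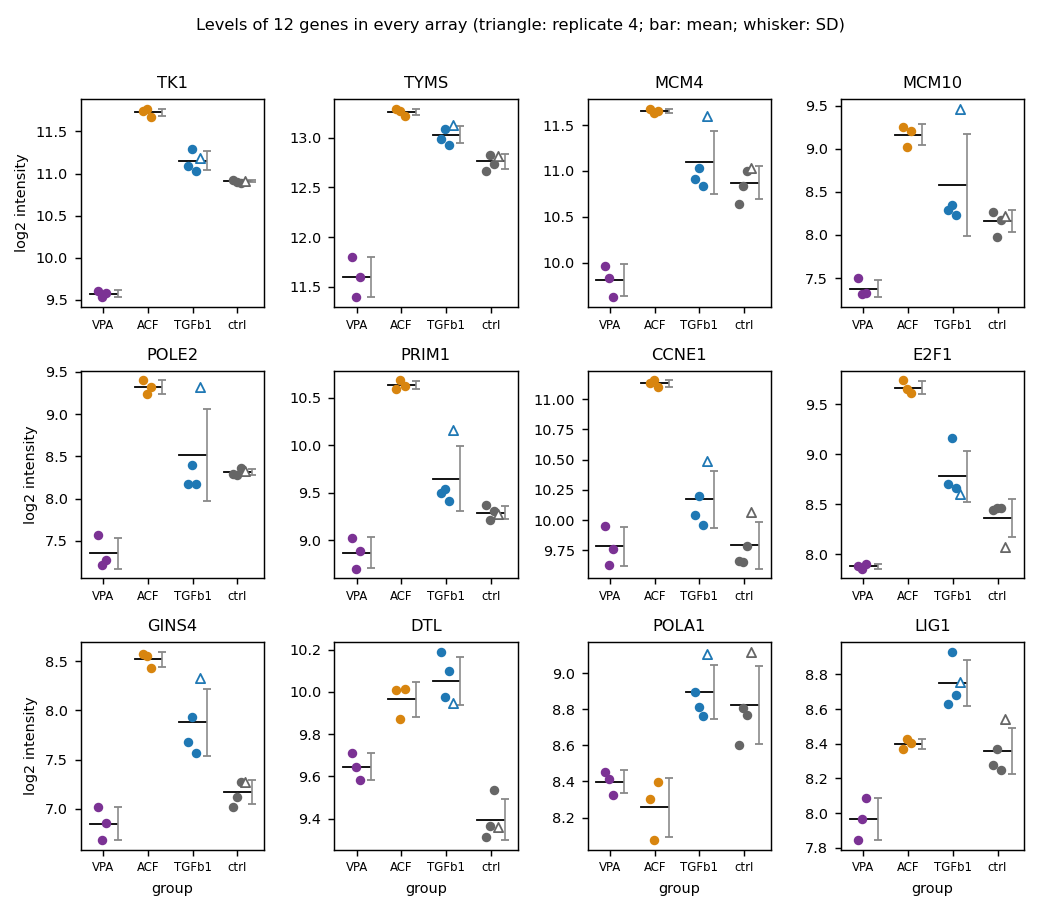
Log2 intensity of 12 genes in each array, by group (VPA, TGFb1 with valproate; ACF, TGFb1 with acriflavine; ctrl, control), with replicate 4 as an open triangle, the mean as a bar and the SD as a whisker; each panel has its own scale. TK1 and TYMS are lowest with valproate, PRIM1, CCNE1 and E2F1 highest with acriflavine, and POLA1 is low with both inhibitors.

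TGFb1 alone was compared with control, both read after the same 48 h as the inhibitor groups. 17 of the 48 genes rose and none fell, where 8.39% of all tested genes rose, and the median change was 0.25, against 0.00 over all genes. No change reached 2-fold. The mean of the PANC-1 markers, VIM included, was 11.0 to 11.4 in TGFb1 arrays, against 11.7 in each control array. Its part in the result was not tested. For 17 of the 48 genes, of which GINS1, PRIM1, PRIM2 and CHAF1A did not pass the test, every TGFb1 array lay above every control array, against 8.44% of all genes. The count depended on single arrays. It was 14 without TGFb1 replicate 4, 16 without both replicates 4, 10 without TGFb1 replicate 1, 9 without TGFb1 replicate 2, 8 without control replicate 2, 9 without control replicate 3 or 4, and 11 without acriflavine replicate 1 or valproate replicate 3. Fitted on these 2 groups alone 5 of the 48 genes passed, against 963 of the 10877 tested genes in either direction. 6 genes (CDC6, GINS4, LIG1, CHAF1B, DTL and UHRF1) passed in every fit that left out 1 array. Over all tested genes 1997 passed in the main fit, in either direction, 3149 without TGFb1 replicate 4 and 1543 without control replicate 2.

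GINS4, a GINS subunit, had the largest rise. It was at 7.68, 7.93, 7.57 and 8.33 in TGFb1 arrays, against 7.02, 7.12, 7.27 and 7.27 in control arrays, and rose by 0.71 ± 0.14 (adjusted p = 0.00305). In the inhibitor groups it was at 7.02, 6.68 and 6.85 with valproate and 8.58, 8.56 and 8.44 with acriflavine. DTL was at 10.19, 9.97, 10.10 and 9.95 in TGFb1 arrays, against 9.32, 9.37, 9.54 and 9.36 in control arrays, and rose by 0.66 ± 0.08 (adjusted p = 4.51e-05). It was at 9.71, 9.64 and 9.58 with valproate and 10.01, 9.87 and 10.01 with acriflavine, above every control array in both. ORC1, the largest origin recognition subunit, was at 7.34, 7.49, 7.32 and 8.22 in TGFb1 arrays, against 7.15, 6.90, 7.07 and 6.94 in control arrays, and rose by 0.58 ± 0.16 (adjusted p = 0.0219). Its levels were 6.83, 6.85 and 6.87 with valproate and 7.90, 7.70 and 7.78 with acriflavine. Without control replicate 2 it did not pass (adjusted p = 0.0615), and without TGFb1 replicate 4 its change was 0.37.

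The other genes that rose spread over the roles. UHRF1 (0.51), CHAF1B (0.51), CDC6 (0.44), E2F1 (0.42), POLA2 (0.41), LIG1 (0.39), CCNE1 (0.38), GINS2 (0.37) and CDT1 (0.36) rose, as did RFC2 (0.31), POLD1 (0.30), RRM1 (0.30), TYMS (0.27) and TK1 (0.24). Several of these calls were fragile. Of 14 fits that each left out 1 array, RFC2, POLD1 and CCNE1 kept their call in 2. TYMS kept it in 3, CDT1 in 4, RRM1 in 6, GINS2 and POLA2 in 10, and E2F1 and TK1 in 12. POLD1 and TYMS did not pass when probe sets were tested one by one (adjusted p of 0.0514 and 0.0511). None of the 6 ring subunits passed, with MCM7 at 0.24, MCM3 at 0.23, MCM5 at 0.22, MCM4 at 0.22, MCM6 at 0.17 and MCM2 at 0.16. Nor did ORC6 (0.13) or GMNN (0.31), MCM10 (0.42), CDC45 (0.35), GINS1 (0.30) or GINS3 (-0.01). Among clamp and polymerase genes PCNA (0.15), RFC1 (0.01), RFC3 (0.11), RFC4 (0.37), RFC5 (0.05), POLA1 (0.07), POLD2 (0.12), POLD3 (0.15), POLE (0.08), POLE2 (0.20), PRIM1 (0.36) and PRIM2 (0.22) did not pass. The remaining ones that did not were RPA1 (0.17), RPA2 (-0.13), RPA3 (-0.13), FEN1 (0.26), RRM2 (0.11), CCNE2 (0.16) and CHAF1A (0.37). With the replicate number as a block RFC4 (adjusted p = 0.00802), PRIM1 (0.0366), PRIM2 (0.0476) and CHAF1A (0.044) passed as well. Their differences were larger between the replicates 4 (0.66, 0.88, 0.47 and 0.89 for RFC4, PRIM1, PRIM2 and CHAF1A) than within replicates 1 to 3 (0.28, 0.18, 0.13 and 0.20). Without TGFb1 replicate 4 and with no block they were at 0.21, 0.19, 0.12 and 0.21, and none passed.

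Replicate 4 of the TGFb1 group differed from replicates 1 to 3 in these genes. It was higher in 38 of 48, against 51.2% of all tested genes, and was the highest TGFb1 array in 31. The median difference was 0.33, against 0.01 over all tested genes. The largest differences were in GMNN (1.34), MCM10 (1.18), POLD3 (1.09) and POLE2 (1.07), and the most negative in POLD2 (-0.35) and RPA2 (-0.31). Control replicate 4 was higher than control replicates 1 to 3 in 25 of 48, against 52.9% of all tested genes, with a median difference of 0.01. Within replicates 1 to 3 the median TGFb1 minus control difference of the 48 genes was 0.16, with 41 above 0, and between the replicates 4 it was 0.51, with 44 above 0. By role the medians within replicates 1 to 3 and between the replicates 4 were 0.04 and 0.36 for the clamp and loader, 0.16 and 0.57 for licensing, and 0.22 and 0.70 for helicase activation. Chromatin and ubiquitin genes had 0.44 and 0.72, and nucleotide synthesis genes 0.23 and 0.34. What sets the arrays numbered 4 apart is not given in the labels and was not tested.

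**Figure D4:**
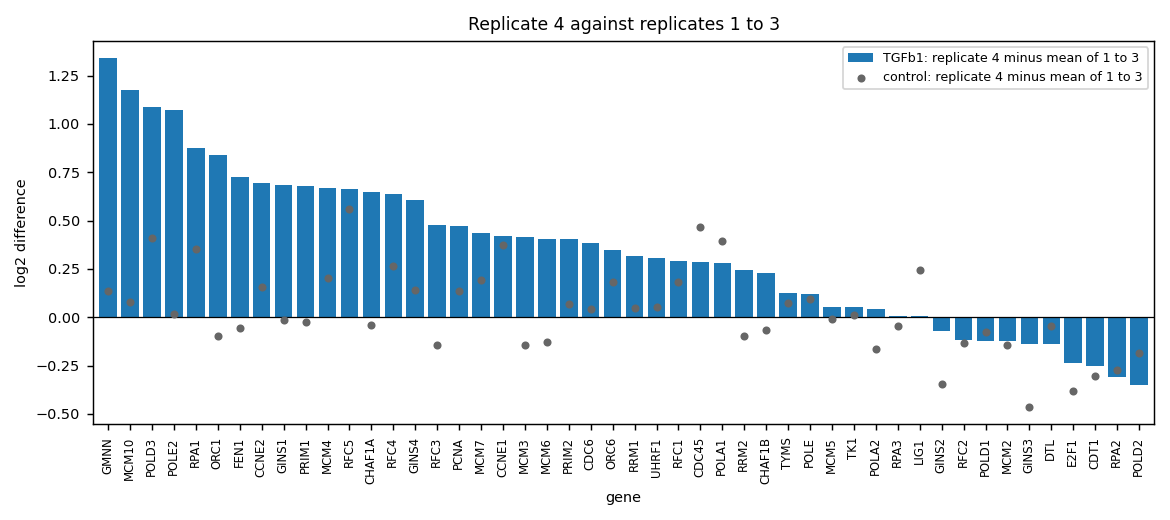
Log2 difference between replicate 4 and the mean of replicates 1 to 3 for each of the 48 genes, as bars for the TGFb1 group and points for the control group, sorted by the TGFb1 difference. The TGFb1 bars run from 1.34 for GMNN to -0.35 for POLD2, and 38 of 48 are above 0.

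The inhibitor groups were also set against control; these comparisons share arrays with those above. With TGFb1 and valproate 36 of 48 genes fell below control, where 19.8% of all tested genes fell, and 1 rose, where 16.9% did. The median was -0.58, with TK1 at -1.34 ± 0.07, TYMS at -1.16 ± 0.09, MCM4 at -1.06 ± 0.16 and GINS3 at -1.02 ± 0.13. DTL was the gene that rose, by 0.25 ± 0.08 (adjusted p = 0.0304). This call was lost without control replicate 1, 2 or 4 or valproate replicate 1 or 2 (adjusted p of 0.0552 to 0.118), with the mean of its probe sets (0.17, adjusted p = 0.0823) and without _x_at and _s_at probe sets (0.08, adjusted p = 0.501). The genes that did not pass were GMNN, ORC1, GINS4, RFC1, RFC5, POLA2, POLD1, POLD2, RPA1, CCNE1 and CHAF1B, with changes from -0.42 (RPA1) to -0.01 (CCNE1). With TGFb1 and acriflavine 40 of 48 rose above control, where 26.1% of all genes rose, and 1 fell, where 21.6% did. The median was 0.65, and GINS4 (1.35 ± 0.15), PRIM1 (1.34 ± 0.15), CCNE1 (1.34 ± 0.13), CDC6 (1.32 ± 0.10) and E2F1 (1.30 ± 0.13) rose most. POLA1 fell by 0.57 ± 0.12 (adjusted p = 0.00172). ORC6, CDC45, GINS3, RFC1, RFC5, POLD2 and LIG1 did not pass.

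Acriflavine and valproate, which are not structurally related and were used at 2.5 µM and 2 mM, were compared directly on the TGFb1 background. 44 of the 48 genes were higher with acriflavine and none lower, where 28.3% of all tested genes were higher, with a median difference of 1.30, against 0.04 over all genes. 34 were at least 2-fold higher, against 5.88% of all genes. TK1 differed by 2.16 ± 0.08 (adjusted p = 4.81e-10), POLE2 by 1.97 ± 0.23, POLD3 by 1.85 ± 0.24 and MCM4 by 1.84 ± 0.17. RFC1 (0.22), RFC5 (0.27), POLD2 (0.30) and POLA1 (-0.14) did not pass. In 39 of the 48 genes the valproate arrays lay below all other 11 arrays, against 11.1% of all tested genes. In 25 the acriflavine arrays lay above all others, against 16.6% of all genes, or in 37 with TGFb1 replicate 4 set aside, against 20% of all genes. Both held for 22 genes, against 3.04% of all genes, among them MCM2, MCM3, CDC6, PCNA, TK1, RRM2 and E2F1.

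**Figure D5:**
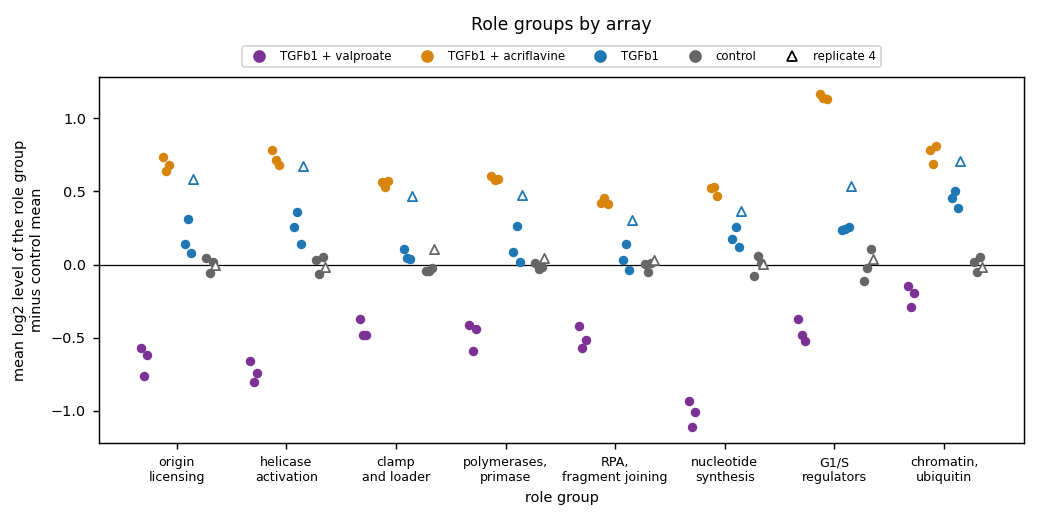
Mean (vertical axis) log2 level of each role group in each array, minus the control mean, with 1 point per array and open triangles for replicate 4. In each of the 8 role groups the valproate points lie below the control points and the acriflavine points above TGFb1 replicates 1 to 3; TGFb1 replicate 4 is level with acriflavine in the helicase activation and chromatin groups.

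Other genes of the same pathways, from lists drawn up by function with earlier results of these data known, were read for comparison. Over all tested genes 16.2% fell and 15.1% rose with valproate, and 24.5% rose and 19.1% fell with acriflavine. For TGFb1 against control 8.39% rose and 9.97% fell. Of 34 tested origin and fork genes outside the 48, 24 fell and 2 rose with valproate, with a median of -0.69. TIMELESS, a fork protection factor, fell by 1.54 ± 0.07 and RNASEH2A, which removes ribonucleotides from DNA, by 1.45 ± 0.10, while CTC1, a telomere replication factor, was at -0.04 and did not pass. With acriflavine 12 rose and 4 fell, with a median of 0.22, or 19 and 6 without TGFb1 replicate 4. ASF1B, a histone chaperone, rose by 1.42 ± 0.12 and TOP1, the topoisomerase that relaxes DNA ahead of forks, by 1.29 ± 0.14, and RNASEH2B was at -0.02. With TGFb1 against control 5 rose and 1 fell, or 5 and 4 without TGFb1 replicate 4, ORC2 at 0.63 and ORC4 at -0.52 being the largest, and RFWD3 was at 0.01.

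Of 30 tested nucleotide metabolism genes outside the 48, 13 fell and 2 rose with valproate (median -0.22), with NUDT1, which clears oxidised nucleotides, at -1.28, DTYMK, thymidylate kinase, at -1.07 and the mitochondrial TK2 at 0.00. With acriflavine 6 rose and 7 fell (median -0.14), where 24.5% of all tested genes rose and 19.1% fell. SAMHD1, a phosphohydrolase that degrades deoxynucleotides and is induced by interferon, rose by 1.85 ± 0.19 and SHMT1 by 0.90 ± 0.16, and the purine enzyme PAICS was at -0.01. With TGFb1 against control 6 rose and 1 fell (median 0.12; 6 and 2, with a median of 0.07, without TGFb1 replicate 4). SAMHD1 was at -1.30 and PRPS1, which makes phosphoribosyl pyrophosphate, at 1.00, while DUT, the dUTPase, was at 0.01 and did not pass.

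Among 20 tested E2F and RB pathway genes outside the 48, 10 fell and 1 rose with valproate (median -0.36). The phosphatase CDC25A, which activates CDK2, fell by 1.54 ± 0.14 and the repressor E2F8 changed by -1.50 ± 0.31. CDKN1A, the CDK inhibitor p21, was the gene that rose, at 13.23, 13.15 and 13.28 in valproate arrays, against 12.35, 12.49, 12.32 and 11.64 in TGFb1 arrays, a change of 1.02 ± 0.15 (adjusted p = 0.000176). All 3 valproate arrays were higher, and TGFb1 replicate 4 was the lowest. E2F6 did not pass (0.07). With acriflavine 4 rose and 4 fell (median 0.06), where 24.5% of all tested genes rose and 19.1% fell. The repressor E2F7 was at -1.26, LIN9 of the MuvB complex at 0.84 and LIN54 at -0.02. With TGFb1 against control 6 rose and 1 fell (median 0.17; 6 and 3 without TGFb1 replicate 4), with E2F7 at 0.88, CDKN1A at 0.72 and LIN9 at -0.01. The fall with valproate extended to 12 of 12 mitotic genes, of which KIF20A (-1.85) and CCNB2 (-1.65) fell most. Their median was -1.34, a larger fall than the -0.86 of the 48 genes, and -1.09 without TGFb1 replicate 4. With acriflavine 1 of those 12 rose and 1 fell (FOXM1 0.51, CCNB2 -0.28, CENPF -0.02 not passed), and with TGFb1 against control 2 rose (FOXM1 0.52, AURKB 0.49, TOP2A 0.00 not passed). The mean of these 12 genes was 10.7 in TGFb1 replicate 4, against 9.92 to 10.1 in TGFb1 replicates 1 to 3. Without TGFb1 replicate 4, 8 rose and 1 fell with acriflavine, with a median of 0.55 against 0.31 with it. For TGFb1 against control 3 rose without it, with a median of 0.09 against 0.37 with it.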

How the data were processed

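The deposited values are log2 intensities of 49193 probe sets on 14 Affymetrix arrays of PANC-1 RNA, 200 ng per array. Per the submitters' processing notes the authors used RMA (affy 1.44.0), which corrects background, equalises the arrays' distributions and sums the probes of a probe set, so a change shared by all genes cannot be seen. Which arrays were normalised together, and any genome build, are not given in the sources used here. Arrays give no counts, and their number limits the precision.

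Of the probe sets 44898 were assigned to 1 gene, 1825 to several and 2470 to none. The brightest was kept per gene over all arrays (18129 genes), and the dimmest 40% were left out, leaving 10877. One model with 4 group means was fitted to all 14 arrays with limma 3.58.1 (lmFit, eBayes; R 4.3.3) and p was adjusted by the Benjamini-Hochberg method over all genes tested, with a threshold of 0.05, as in every adjusted p given. On simulated data, with 200 of 10877 genes changed and independent noise per gene, it recovered 88%, 95% and 94% of genes changed by 1 log2 unit. These are for valproate and acriflavine against TGFb1 and for TGFb1 against control. It recovered 52%, 51% and 56% of those changed by 0.5, and 8.50%, 7.01% and 6.83% of its calls were false. The real comparisons called 3402, 4738 and 1997 genes, so these rates may not hold for them. A gene that did not pass may thus still differ.

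The 48 genes and the other lists were chosen with earlier results of these data known. All 48 are named. Values per array are given in each role for the 2 with the largest change with valproate, and for the 3 with the largest change in the other main comparisons. From each other list, the 2 largest changes that passed and the smallest that did not are named. Motifs were searched in RefSeq promoters with Python 3.11.15.

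Replicate numbers recur across groups. For TGFb1 against control the deviations of same-numbered arrays from their group means correlated over genes at 0.387, 0.359, 0.543 and 0.705, so the numbers were taken to pair these samples, although with replicates 1 to 3 alone the correlations were -0.258, 0.151 and 0.589; for the other comparisons they were not. No 2 arrays were identical. Alternatives tried were other filters, probe set rules, scalings, variance settings, a replicate block, stricter thresholds, and leaving out arrays; leaving out TGFb1 replicate 2 with both arrays numbered 4, a term for those 2 arrays, single probe sets, the other lists without TGFb1 replicate 4 and the checks of DTL against control were added after the data were seen.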

Additional observations from a re-analysis of the deposited data

Results flagged for a closer look

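Among 96 groups of 4 arrays tested with Dixon's test (48 genes in TGFb1 and in control), 15 had 1 array far from the other 3, where chance gives about 1 in 20 and 10.3% of such groups over all tested genes had one. Of these, 10 were TGFb1 replicate 4, which stood apart in this way for 9.39% of all tested genes (4.55% where it was the high one, against 9 of the 48 genes). It was high for GMNN at 11.7489 (other TGFb1 arrays 10.3776 to 10.4486), MCM10 at 9.4646 (8.2268 to 8.3506), GINS1 at 11.2544 (10.5447 to 10.6062) and PCNA at 13.035 (12.5329 to 12.6093). It was also high for RFC4 at 11.6822 (10.9762 to 11.0856), RFC5 at 10.9841 (10.2605 to 10.3593), PRIM1 at 10.1577 (9.4097 to 9.5372), PRIM2 at 9.5692 (9.1532 to 9.1774) and UHRF1 at 11.0078 (10.6875 to 10.7273). It was low for RPA2 at 10.8746 (11.1669 to 11.2022).

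Control replicate 4 was high for PCNA at 12.6368 (other control arrays 12.4898 to 12.5081) and POLE at 9.2944 (9.1942 to 9.206), and low for E2F1 at 8.0788 (8.4463 to 8.4692). PCNA was thus high in replicate 4 of both groups. Control replicate 1 was low for ORC6 at 9.8439 (10.1903 to 10.2552), and TGFb1 replicate 2 was high for MCM2 at 10.5552 (10.013 to 10.0846).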

How the results depend on the processing

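With any 1 array left out, 40 to 44 of the 48 genes passed for valproate against TGFb1, 25 to 39 for acriflavine against TGFb1, 8 to 20 for TGFb1 against control, 31 to 40 for valproate against control, 38 to 42 for acriflavine against control and 44 to 45 for acriflavine against valproate. Over all tested genes the counts in the first 3 comparisons were 2588 to 4397, 3748 to 5614 and 1387 to 3149, in either direction. In the others they were 3064 to 5052, 4237 to 6114 and 4725 to 6455. For TGFb1 against control the count of 17 was 5 when only those groups were fitted and 6 at an adjusted p of 0.01. It was 10 without both replicates 4 and TGFb1 replicate 2. Over all tested genes 1997 passed in the main fit, and 963, 1051 and 2757 under these settings, in either direction. The fit of those groups alone has fewer arrays. With a fold of at least 2 required, 16 genes passed for valproate against TGFb1, 0 for acriflavine against TGFb1, 0 for TGFb1 against control, 5 for valproate against control and 7 for acriflavine against control. Over all tested genes 445, 753, 280, 638 and 792 passed at that fold, in the same order and in either direction. Apart from these settings and the fits that left out 1 array, every setting kept each count within 1.5 times. With the replicate block 21 genes passed for TGFb1 against control, where 3148 of all tested genes did, and the calls it added are given above. The numbers were only taken to pair these samples, since the labels state no pairing. Within replicates 1 to 3 the correlations were -0.258, 0.151 and 0.589. The main fit had no block. Elsewhere, where the numbers were not taken to pair the arrays, the block gave 46 (valproate against TGFb1) and 36 (acriflavine against TGFb1). It gave 37 (valproate against control), 43 (acriflavine against control) and 46 (acriflavine against valproate). Over all tested genes the block gave 4575, 5784, 4988, 6039 and 6552 for these 5 comparisons, in the same order. Without it 3402, 4738, 3991, 5193 and 5604 passed. Over single genes no called change turned its sign in the 3 main comparisons; signs of changes that passed in neither fit were not followed. Of 1377 values each, 24 lost and 13 gained a call for valproate, 33 and 47 for acriflavine, and 125 and 16 for TGFb1 against control.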
